A study of Camellia sinensis with 6 samples.

Results

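GRAS proteins are plant transcription regulators that share a carboxyl-terminal GRAS domain and are named after GAI, RGA and SCARECROW. The 69 gene models described here are those that the deposited annotation places in the GRAS family, of 40118 in the tables, and they were grouped by the protein name given to each. Of these, 9 carry the name of a DELLA protein, 43 that of SCARECROW or a SCARECROW-like protein, 2 that of SHORT-ROOT and 3 that of PAT1, a phytochrome signalling factor. The other 12 hold chitin-inducible gibberellin-responsive proteins, nodulation-signaling proteins, 4 models named after other proteins and 2 with no protein name. Names are those that the deposited annotation gives, and a shared name does not make a model the counterpart of the Arabidopsis or rice gene. All 69 models list the GRAS domain.

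RNA was sequenced from young shoots of the tea plant (Camellia sinensis) cultivar 'Zhonghuang 2', which yellows in the cold. All plants were first kept for 1 month at 22 °C, and then 3 libraries came from green shoots of a high-temperature chamber (26 °C by day, 22 °C by night) and 3 from yellowed shoots of a low-temperature chamber (18 °C and 14 °C), both with 12 h of light. The first month was under fluorescent lamps at 200 µmol per square metre and second for all plants. Each temperature had its own chamber, and the effects of chamber and temperature therefore cannot be told apart. The labels do not state whether replicates were taken from different plants, and p-values measure the spread between libraries, which may be technical.

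DELLA proteins repress gibberellin responses and are destroyed once the hormone binds its receptor GID1. In the Arabidopsis root SHORT-ROOT moves outward from the vascular tissue and acts with SCARECROW to pattern the endodermis, and both also act in the bundle sheath of leaves. SCARECROW-like protein 6 belongs to the HAIRY MERISTEM branch, which is cut by the microRNA miR171, keeps shoot meristems undifferentiated and in Arabidopsis holds back chlorophyll synthesis through a protochlorophyllide reductase gene. PAT1 acts in signalling from phytochrome A, and SCARECROW-like proteins 9, 14 and 33 form a branch in which SCL14 switches on detoxification genes.

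Total counts were 15202546 to 15642015 per library. CPM are counts relative to library size, here scaled between libraries by the trimmed mean of M values (TMM), and levels of different genes are compared only as FPKM, which also divide by coding length. High-temperature replicate 2 stood apart, on the second principal component, which held 17.1% of the variance, and the summed level of 21 gene models for chlorophyll a-b binding proteins was 27825 CPM there, against 41232 and 40986 CPM in the other high-temperature libraries and 23113 to 23950 CPM at low temperature. In whole shoots, more RNA per cell and more cells of a type cannot be told apart.

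The members spanned a wide range of levels. Mean FPKM over the 6 libraries was at least 10 in 23 models, from 1 to 10 in 21 and under 1 in 25. The highest were the DELLA models ChaUn5907.3 with 130 FPKM, Cha12g010390 with 118 FPKM and ChaUn9926.1 with 89.1 FPKM. A SHORT-ROOT model (Cha03g017610) followed after 1 more DELLA model, with 42.9 FPKM. Too few counts for a test were found in 18 members, of which 5 had no read in any library. In those 18 no library held more than 20 counts. They include 4 of 6 SCARECROW models, all 3 nodulation-signaling models and 2 short SCARECROW-like protein 6 models with coding lengths of 762 and 384 bases.

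**Figure D1:**
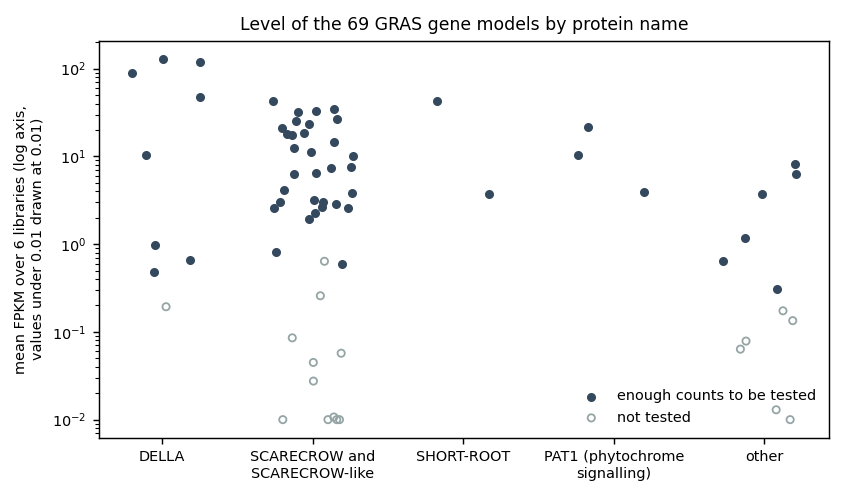
Mean FPKM over the 6 libraries (log axis) for each of the 69 GRAS gene models, by protein-name group; each point is 1 gene model, filled where it had enough counts to be tested. The DELLA group splits into 5 models with 10.5 FPKM or more and 4 models under 1 FPKM, and the SCARECROW-like group spreads from 0 to 42.4 FPKM.

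The comparison of low with high temperature asks which members differ between yellowed and green shoots. Of the 51 tested members 14 were higher at low temperature and none was lower, by edgeR's quasi-likelihood test with an adjusted p under 0.05 (5 more had an unadjusted p under 0.05, 4 of them higher; DESeq2 also called 14 higher and none lower). Among all 26767 tested gene models 9.27% were called higher and 9.65% lower. The members' median log2 change was 0.25, against -0.01 over all tested gene models and -0.10 over 573 tested genes of 8 other transcription factor families, of which 7.16% were called higher and 14.5% lower. The calls fell on 12 of 32 tested SCARECROW and SCARECROW-like models, 1 of 2 SHORT-ROOT models and 1 of 6 in the mixed group, and on none of the 8 DELLA and 3 PAT1 models. Differences were moderate, from 1.36-fold to 3.77-fold in mean CPM, and 2 of the 14 reached 2-fold.

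In all 14 called members every low-temperature library lay above every high-temperature library. Over all 51, there was no overlap between the libraries at the 2 temperatures in 19 members that were higher and 1 that was lower at low temperature, where 18.1% and 18.4% of all tested gene models did so. Without low-temperature replicate 3 the number called higher was 8, without low-temperature replicate 2 it was 9, and tests on log2 FPKM gave 8 or 9. Without high-temperature replicate 2 it was again 14, of which 13 were the same, and 10.6% of all gene models then tested were called higher. SCARECROW-like protein 15 (Cha03g016160) then missed the threshold and SCARECROW-like protein 32 (Cha08g011530) passed it. Over all gene models the number called, 5062 with all libraries, also varied with a library left out and on log2 FPKM. The shares called higher in those other settings are not given here. Without those shares, the lower member counts cannot show whether a loss was particular to this family.

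**Figure D2:**
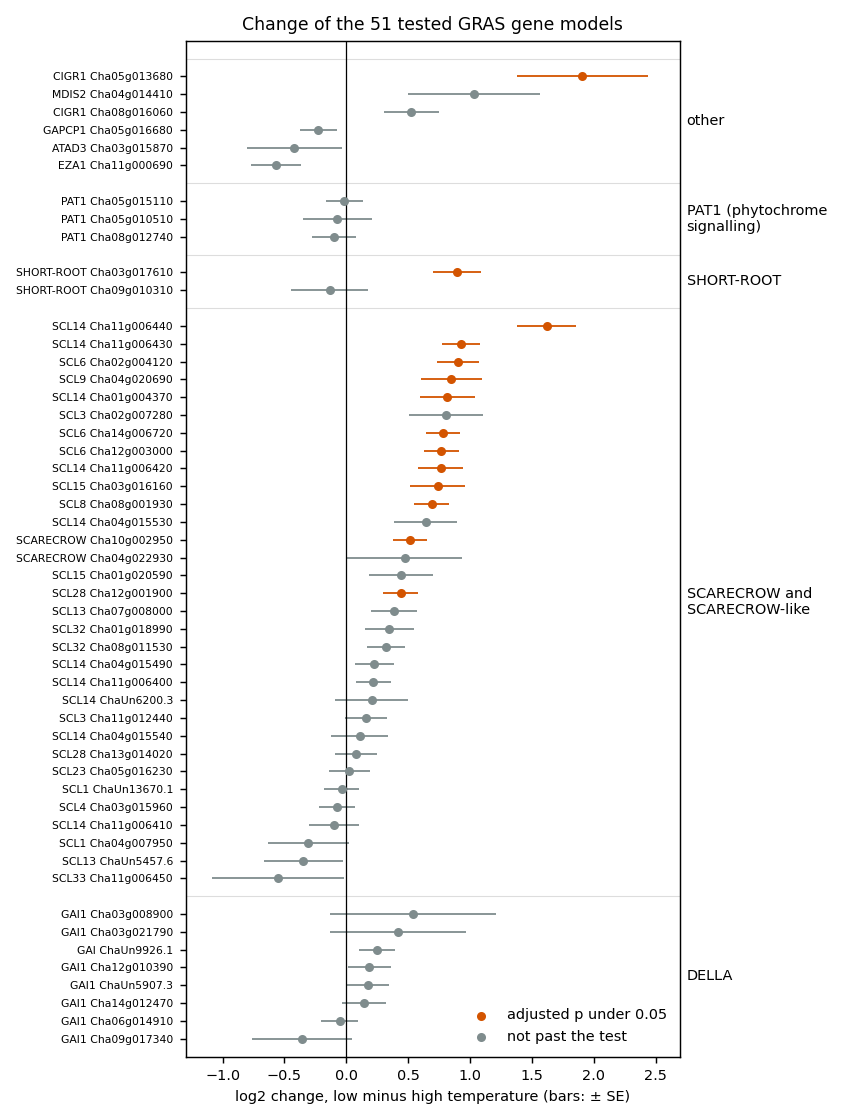
Log2 change at low against high temperature (points, bars ± SE from edgeR) for the 51 tested GRAS gene models, ordered within each protein-name group; orange marks an adjusted p under 0.05. All 14 orange points lie right of 0, none is in the DELLA or PAT1 group, and 36 of the 51 points lie right of 0.

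SCARECROW-like protein 6, the HAIRY MERISTEM type, rose in all 3 of its tested models. Cha14g006720 (sequence 14, 45150486 to 45152552, minus strand) had 42.5, 37.6 and 42.1 CPM in high-temperature replicates 1, 2 and 3, and 60.7, 72.2 and 76.8 CPM in the low-temperature ones. The lowest cold library was well above the highest warm one, and the log2 change was 0.78 ± 0.14 (SE) with an adjusted p of 0.000726. Cha12g003000 (sequence 12, 15828468 to 15856298, plus strand) went from 24.5, 21.3 and 25.8 CPM to 39.8, 38.8 and 43.3 CPM, a log2 change of 0.77 ± 0.14 (adjusted p = 0.00119). Cha02g004120 (sequence 2, 34868168 to 34870495, minus strand) had 9.99, 10.3 and 9.20 CPM against 16.8, 18.9 and 19.5 CPM (log2 change 0.90 ± 0.17, adjusted p = 0.00149). The models are of like coding length, and their levels ranged from 4.43 to 19.4 FPKM at high and from 8.35 to 33.4 FPKM at low temperature. All 3 stayed past the threshold in each of 16 alternatives that gave them a value, with the highest adjusted p at 0.0214.

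Protochlorophyllide reductase, the enzyme whose gene this branch is known to act on in Arabidopsis, has 4 gene models. One of them, ChaUn14930.2, fell from 145, 183 and 159 CPM to 92.8, 74.9 and 69.7 CPM (log2 change -1.04 ± 0.15, adjusted p = 0.000123). The most abundant, Cha05g012870, had 1381 ± 48.9 CPM at high and 1082 ± 64.3 CPM at low temperature (SD, n = 3) and missed the threshold (adjusted p = 0.136). The remaining models had log2 changes of -0.24 and 0.41, and neither passed the test. Thus 1 of 4 was called lower, against 9.65% of all tested gene models, and 4 models are too few to compare these shares. Whether the fall of ChaUn14930.2 is linked to the rise of the genes of this branch was not tested.

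SHORT-ROOT Cha03g017610 (sequence 3, 158941027 to 158947337, plus strand) rose 1.86-fold. It had 54.3, 28.3 and 51.1 CPM in the high-temperature libraries and 86.7, 76.8 and 84.8 CPM in the low-temperature ones. High-temperature replicate 2 was by far its lowest library. The log2 change was 0.89 ± 0.19 (adjusted p = 0.00545) with that library and 0.65 without it (adjusted p = 0.000286). The other SHORT-ROOT model, Cha09g010310, was at 5.51, 5.70 and 2.89 CPM against 4.67, 3.13 and 5.06 CPM. Its groups overlapped, and the log2 change was -0.13 with an approximate 95% interval (± 1.96 SE) of -0.74 to 0.47.

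SCARECROW Cha10g002950 (sequence 10, 20003683 to 20009179, minus strand), the model of its name with the most reads, rose 1.43-fold. Its levels were 65.1, 47.2 and 57.1 CPM at high and 80.2, 78.9 and 83.0 CPM at low temperature, a log2 change of 0.52 ± 0.14 (adjusted p = 0.0136). The call was lost without low-temperature replicate 2 (adjusted p = 0.0521), without low-temperature replicate 3 (0.0675) and on log2 FPKM with no filter (0.0599), over a range of 0.00574 to 0.0675. The second tested SCARECROW model, Cha04g022930, stood at 1.18 ± 0.127 and 1.64 ± 0.530 CPM and was not called. SCARECROW-like protein 23 (Cha05g016230), the closest relative of SCARECROW in Arabidopsis and the member of its group with the highest FPKM, had 47.5 ± 11.7 and 48.3 ± 4.46 CPM. Its log2 change of 0.02 has an interval of -0.30 to 0.35.

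Casparian strip membrane proteins mark the endodermis, which lies downstream of these factors in roots, and 1 of their gene models rose as both genes did. Their 4 gene models summed to 110 to 127 CPM in the high-temperature and 166 to 202 CPM in the low-temperature libraries. Nearly all of that came from 1 model, Cha06g017890, with a coding length of 2331 bases against 375 to 606 bases in the others. It rose (log2 change 0.71, adjusted p = 0.00165), while Cha11g003030 was not called and the remaining models had at most 2 reads in a library. Whether a larger share of such cells plays a part in the SHORT-ROOT and SCARECROW values was not tested. A list of 6 models named ROOT HAIR DEFECTIVE 3 or its homolog 2 summed to 129 to 166 CPM at high and 123 to 128 CPM at low temperature. The homolog 2 model, Cha07g001890, was called lower (log2 change -0.49, adjusted p = 0.0240), and the other tested models of the list were not called. ROOT HAIR DEFECTIVE 3 is a membrane protein found in many tissues, so its level says nothing of root tissue.

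SCARECROW-like protein 14 is the most frequent name, with 11 gene models, 10 of them tested and 4 called higher. The most pronounced was Cha11g006440 (sequence 11, 59247625 to 59250280, plus strand) with 2.79, 3.06 and 3.02 CPM at high and 8.14, 8.88 and 10.3 CPM at low temperature. That is 3.08-fold, a log2 change of 1.62 ± 0.24 (adjusted p = 0.000197), and it was the one member called against a 1.5-fold change. Its neighbour Cha11g006430 (59331355 to 59333899) had 28, 29.1 and 27.9 CPM against 42.3, 60.5 and 58.9 CPM (log2 change 0.93 ± 0.15, adjusted p = 0.000442). The high-temperature libraries agree closely in both genes, and low-temperature replicate 1 was the lowest of the cold libraries in each. Cha11g006420 (59531897 to 59536112) went from 9.72, 9.60 and 9.80 CPM to 14.1, 16.6 and 18.8 CPM (log2 change 0.76 ± 0.18, adjusted p = 0.0067), and lost its call without low-temperature replicate 3 (adjusted p = 0.0574).

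These 3 models lie side by side in a run of 6 GRAS models on the plus strand of sequence 11, which spans 415977 bases. No other annotated gene model lies in between. The remaining 3 did not pass the test. Cha11g006400 had 36.8 ± 4.41 and 42.8 ± 2.72 CPM, Cha11g006410 had 9.53 ± 0.697 and 8.89 ± 1.18 CPM, and Cha11g006450, named SCARECROW-like protein 33, had 1.33 ± 0.534 and 0.907 ± 0.344 CPM. Differences between neighbours were not tested, and reads of such close relatives may be split among them. A second run, of 4 SCARECROW-like protein 14 models on sequence 4, had 3 tested members and no call, with log2 changes of 0.11 to 0.64. Outside the runs, Cha01g004370 on sequence 1 rose from 6.19, 7.14 and 4.34 CPM to 10.1, 10.6 and 10.4 CPM (log2 change 0.82 ± 0.22, adjusted p = 0.0159). That call was lost on log2 FPKM and on leaving out high-temperature replicate 3 or either of low-temperature replicates 2 and 3, over a range of 0.00381 to 0.0879.

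**Figure D3:**
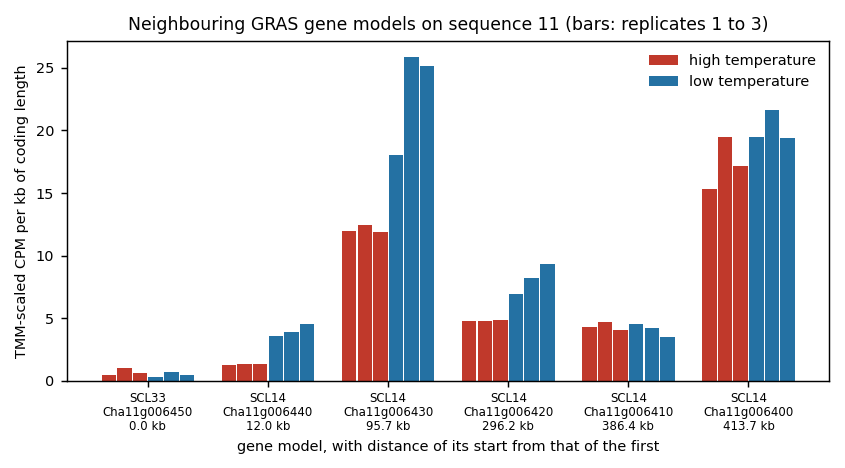
TMM-scaled CPM per kb of coding length in each library (bars, replicates 1 to 3 of each temperature) for the 6 neighbouring GRAS gene models of sequence 11, in their order, with the distance of each start from the first. In Cha11g006440, Cha11g006430 and Cha11g006420 all low-temperature bars stand above all high-temperature bars, and in the other 3 models the bars of the groups overlap.

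SCARECROW-like protein 9 (Cha04g020690), of the same branch as protein 14, rose from 4.49, 6.0 and 3.81 CPM to 7.47, 10.5 and 7.84 CPM (log2 change 0.85 ± 0.25, adjusted p = 0.0224). SCARECROW-like protein 8 (Cha08g001930, sequence 8, 12452389 to 12459855, minus strand), rose 1.61-fold. Its levels were 49.7, 37.8 and 51.3 CPM at high and 73.5, 69 and 81.4 CPM at low temperature, a log2 change of 0.69 ± 0.14 (adjusted p = 0.00274), past the threshold in all 16 alternatives. In 1 model of SCARECROW-like protein 15 (Cha03g016160) the levels of 10.4, 6.78 and 7.30 CPM came close to the lowest of the cold libraries, which had 16.8, 10.4 and 13.5 CPM (log2 change 0.74 ± 0.22, adjusted p = 0.028). The other model of protein 15, Cha01g020590, had a log2 change of 0.44 with an interval of -0.07 to 0.95 and was not called (adjusted p = 0.260). One model of SCARECROW-like protein 28 (Cha12g001900), whose rice counterpart DLT acts in brassinosteroid signalling, rose least of the called members. Its levels went from 34.9, 40.4 and 41.8 CPM to 45.8, 57.7 and 55.4 CPM (log2 change 0.44 ± 0.14, adjusted p = 0.0346). The other model of that name, Cha13g014020, had a log2 change of 0.08 with overlapping groups and was not called (adjusted p = 0.800). Over the alternatives Cha12g001900 kept its call in 8 of 16, and the called models of protein 9 and protein 15 in 9 of 16 each.

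Chitin-inducible gibberellin-responsive proteins are named after rice genes of the PAT1 branch that respond to a chitin elicitor and to gibberellin. Cha05g013680 (sequence 5, 150307541 to 150349341, plus strand) had 10, 7 and 8 counts at high and 39, 37 and 18 counts at low temperature. Its groups did not overlap, and its 3.77-fold difference in mean CPM (log2 change 1.91 ± 0.53, adjusted p = 0.0173) was the largest of the called members but rests on few reads. The call was lost without low-temperature replicate 1 (adjusted p = 0.0847) or 2 (0.0924) and in tests on log2 FPKM, over a range of 0.0124 to 0.177. The more abundant Cha08g016060 had 8.89 ± 2.32 and 12.8 ± 2.86 CPM and was not called (adjusted p = 0.112), although it was without high-temperature replicate 1 (0.0396).

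**Figure D4:**
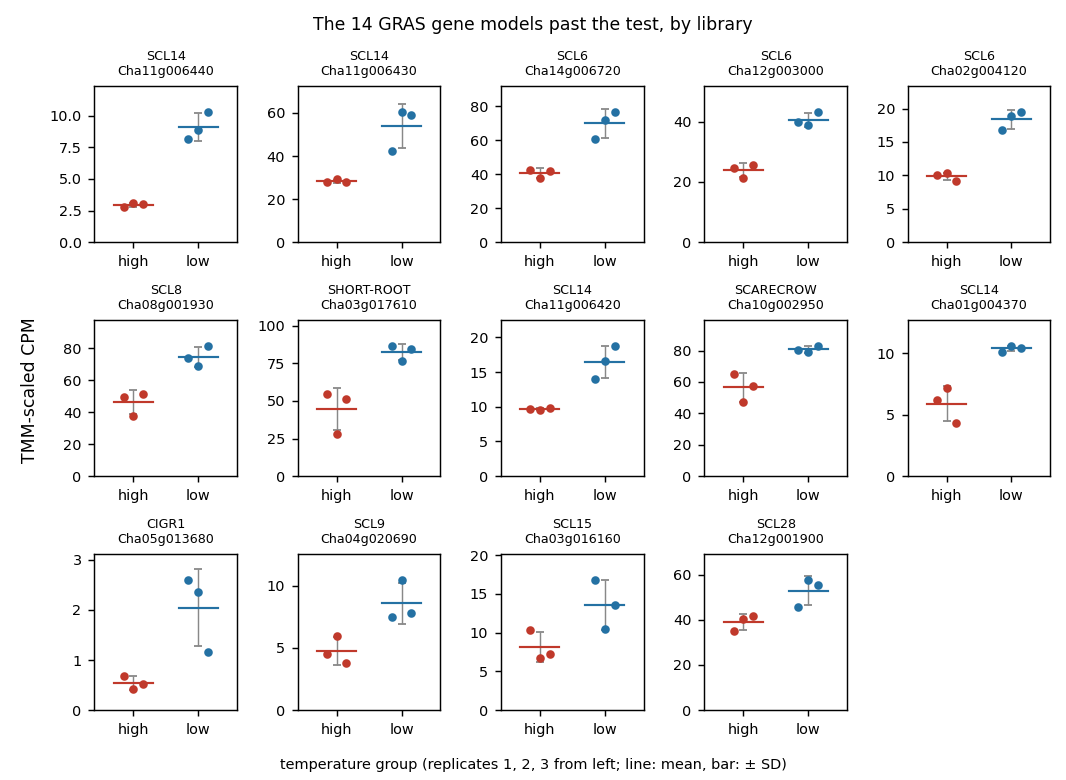
TMM-scaled CPM in each library (points, replicates 1 to 3 from left) with the group mean (line) and ± SD (bar, n = 3) for the 14 GRAS gene models with an adjusted p under 0.05, in order of that p. In each panel all 3 low-temperature points lie above the 3 high-temperature points, and the low point of SHORT-ROOT at 28.3 CPM is high-temperature replicate 2.

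DELLA genes, the brakes of gibberellin signalling, were the most abundant members and none was called. The 5 models that also list the amino-terminal DELLA domain, through which gibberellin acts, had between 10.5 and 130 FPKM, and the 4 that list only the GRAS domain had under 1 FPKM each. ChaUn5907.3 had 216, 141 and 233 CPM at high and 238, 206 and 222 CPM at low temperature, and Cha12g010390 had 215, 135 and 226 CPM against 234, 201 and 220 CPM. Raw counts of these models differed by 0.663% to 4.39% of their mean in each library, so they may not be separate observations. Their log2 changes were 0.17 and 0.19, and without high-temperature replicate 2 they were -0.01 each.

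In ChaUn9926.1, named GAI, the levels were 153, 111 and 154 CPM against 158, 169 and 171 CPM. The groups did not overlap, yet the log2 change of 0.25 with an interval of -0.04 to 0.53 missed the threshold (adjusted p = 0.256), and it was 0.11 without high-temperature replicate 2. Cha06g014910 had 98.5, 63.6 and 88.2 CPM against 74.9, 82.5 and 83.5 CPM, with an interval of -0.35 to 0.24. Cha14g012470 had 19.8, 13.7 and 17.4 CPM against 18.9, 15.9 and 21.5 CPM, with an interval of -0.21 to 0.49. High-temperature replicate 2 was the lowest library in all 5. The summed level of the DELLA group was 469 CPM there, 706 and 722 CPM in the other high-temperature libraries and 679 to 729 CPM at low temperature. A change of 1.5-fold or more lies outside the intervals of all 5 models, within which smaller changes remain possible.

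The 3 PAT1 models had the smallest differences of any group. Cha05g015110 had 32.2, 42.7 and 35.4 CPM at high and 34.0, 41.3 and 33.8 CPM at low temperature, and its log2 change of -0.02 has an interval of -0.31 to 0.28. Cha08g012740 had 19.2, 25.0 and 15.5 CPM against 18.4, 19.5 and 17.9 CPM, with an interval of -0.45 to 0.25. Cha05g010510 had 6.65 ± 2.5 and 6.34 ± 1.24 CPM, with a wider interval of -0.62 to 0.47, within which a 1.5-fold fall remains possible. In contrast to the DELLA models, Cha05g015110 was highest in high-temperature replicate 2 within its group, as was Cha08g012740.

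**Figure D5:**
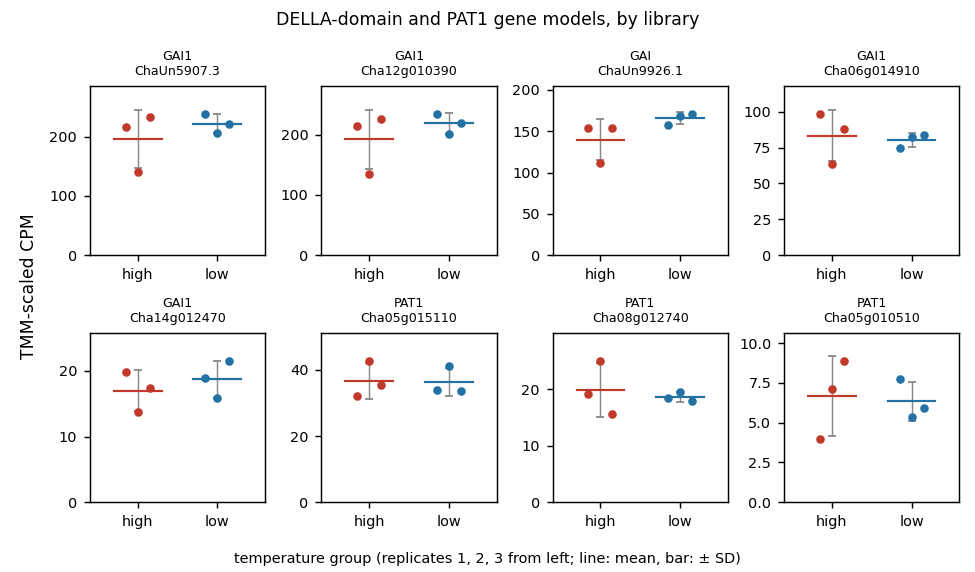
TMM-scaled CPM in each library (points, replicates 1 to 3 from left) with the group mean (line) and ± SD (bar, n = 3) for the 5 gene models with a DELLA domain and the 3 PAT1 models. High-temperature replicate 2 is the lowest point of each DELLA panel, and the groups overlap in every panel except that of ChaUn9926.1.

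Among the remaining tested members, SCARECROW-like protein 3, which in Arabidopsis acts against DELLA proteins, had log2 changes of 0.81 ± 0.30 in Cha02g007280 (adjusted p = 0.0701) and 0.16 in Cha11g012440. SCARECROW-like protein 1, 4, 13 and 32 models ranged from -0.35 to 0.38 on the log2 scale, and none was called with all 6 libraries. A second, unrelated domain is listed for 6 of the 69 models, among them the models named after the plastid glyceraldehyde-3-phosphate dehydrogenase GAPCP1, the histone methyltransferase EZA1 and the receptor kinase MALE DISCOVERER 2, and their counts may come from either part. Of these 4 were tested and none was called. The GAPCP1 model (Cha05g016680), with the highest FPKM of the mixed group, had 29.6, 25.0 and 26.9 CPM against 25.7, 21.0 and 22.9 CPM (log2 change -0.23, adjusted p = 0.319). The EZA1 model (Cha11g000690) had 13.5, 23.6 and 16.9 CPM against 12.1, 12.9 and 11.3 CPM, a log2 change of -0.57 ± 0.20 (adjusted p = 0.0536), and -0.32 without high-temperature replicate 2. In 4 of 16 alternatives it passed as lower, and its adjusted p ran from 0.018 to 0.274. Its groups did not overlap. MALE DISCOVERER 2 (Cha04g014410), the one tested member at least 2-fold apart without a call, had 0.766 ± 0.329 and 1.58 ± 0.438 CPM.

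Most members span more bases than their coding length, as do most gene models in these tables. Exons were not examined, so extra span is not proof of an intron. Less than 20 bases of genomic span beyond the coding length, taken here as no intron, was found in 8 of the 69 members, 11.6%. The share was 2.65% of 33556 annotated gene models, and this difference was not tested. The most abundant DELLA models were among them, 4 of 9 in that group, as was Cha14g006720 of SCARECROW-like protein 6. The median coding length was 1716 bases, against 957 over annotated gene models. Neighbour runs, in which at most 4 other annotated models separate members, held 15 members in 4 runs. The 6562 gene models outside the annotated ones were not counted in these runs.

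Genes named after proteins of these pathways were matched by the text of the protein name in 6 lists with 96 gene models, of which 70 were tested, 4 rose and 4 fell. Over all tested gene models 9.27% were called higher and 9.65% lower, so the lists held no more calls than gene models in general. For gibberellin synthesis and inactivation 12 of 26 were tested and 1 fell, ent-kaurenoic acid oxidase 1 (Cha02g004540), an early step of the pathway, from 5.10, 7.20 and 5.79 CPM to 4.34, 3.07 and 1.94 CPM (log2 change -0.95 ± 0.31, adjusted p = 0.0368). None of 5 tested gibberellin receptor and GID2 models was called. Their log2 changes ran from 0.07 to 1.42, and GID1C Cha06g010500, the receptor model with the most counts, had 38.7 ± 2.66 and 49.7 ± 9.59 CPM (adjusted p = 0.109). In the list of gibberellin response genes, which also takes in names with the words snakin or GASA, 1 of 6 tested models fell. That was Snakin-2 (Cha06g001230), matched by the word snakin, with 50, 26 and 18 counts at high and 0, 4 and 9 counts at low temperature (adjusted p = 0.0128).

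The list of partner factors had 3 of 34 that rose and 1 that fell, which is no more than the 9.27% and 9.65% of all tested gene models. PIF7 (Cha03g011080), a phytochrome-interacting factor of the kind that DELLA proteins sequester, fell from 11.4, 14.6 and 8.48 CPM to 4.14, 6.26 and 5.12 CPM (log2 change -1.15 ± 0.24, adjusted p = 0.00317). The second PIF7 model, Cha15g003060, had a log2 change of -0.26 and was not called. Neither were the transcription factor models PIF3 (Cha06g002690, log2 change -0.75, adjusted p = 0.108) and PIF1 (Cha11g009770, log2 change -0.53, adjusted p = 0.257). BES1/BZR1 homolog 4 (Cha07g003970), a brassinosteroid factor, rose from 121 ± 21.2 to 171 ± 15.3 CPM (adjusted p = 0.0254). The other models of that name, ChaUn7797.1 and Cha08g014370, had log2 changes of -0.44 and -0.10 and were not called, nor were BES1/BZR1 homolog 2 (0.08) and the BRASSINAZOLE-RESISTANT 1 models ChaUn6294.1 (-0.08) and Cha04g002430 (0.09). The other risers, ChaUn4438.3 and Cha13g001650, are chloroplast GTP-binding proteins matched by the word brassinazole in their name and are not transcription factors. A DNA helicase (Cha08g008920, not called) was likewise matched only by the text PIF1. None of 16 tested models named indeterminate-domain proteins was called. In the phytochrome list 1 of 9 rose, a phytochrome A-associated F-box protein (Cha13g008920), with 43.9 ± 11 and 65.5 ± 5.10 CPM (adjusted p = 0.0201), and no phytochrome itself was called.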

How the data were processed

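The authors deposited 2 tables over the same gene models, one of raw read counts per library and one of FPKM (relative to coding length and library size). The submitters' processing notes name HISAT2 2.0.5, featureCounts 1.5.0-p3, CASAVA 1.8.2, fastp, R 4.1.0 and DESeq2 1.20.0, without roles. The genome build was not given in the sources used here, and neither was the strand setting. Protein names and domains are those of the deposited table. Counts were tested with edgeR 4.0.16 (R 4.3.3), using a minimum count of 10 in filterByExpr, TMM scaling, a robust quasi-likelihood fit of temperature and Benjamini-Hochberg adjustment over all 26767 tested gene models. The SE is the log2 change divided by the root of F. Alternatives used DESeq2 1.42.0, other scalings and filters, a replicate block, limma 3.58.1 on log2(FPKM + 1) and log2(FPKM + 0.1), and each library left out in turn. Fits were tested on simulated data. Total counts of 15202546 to 15642015 per library put 3 counts at 0.18 to 0.204 CPM, and this covers counting error only. The members and gene lists were chosen with earlier results of these data known. Genes named are all called members, the 2 members of highest FPKM in each group, members at least 2-fold apart without a call where the higher group had at least 1 CPM, and up to 3 called genes of each list. The other genes named, members and list genes alike (the fourth called partner gene, Cha13g001650, and all uncalled list genes among them), were chosen after their values were seen.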

Additional observations from a re-analysis of the deposited data

How the results depend on the processing

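The 14 members called higher became 9 with limma on log2(FPKM + 1) or log2(FPKM + 0.1), 8 on log2(FPKM + 1) with no filter, 8 at an adjusted p under 0.01, 1 against a 1.5-fold change, and 8 to 14 with a library left out. The 0 called lower became 1 (Cha11g000690) under upper-quartile scaling, with no count filter and at a minimum count of 30, and 0 to 1 with a library left out. The median log2 change of 0.25 was 0.22 on library totals, 0.29 with no count filter, 0.21 at a minimum count of 30, 0.30 with DESeq2, 0.21 and 0.18 on log2(FPKM + 1) with and without the filter, 0.32 without members that list a second domain (an alternative chosen after seeing the data), and 0.25 to 0.32 with a library left out. All called gene models numbered 5062, against 2867 on log2(FPKM + 1) with no filter, 2423 at an adjusted p under 0.01 and 2606 to 5621 with a library left out. The 8 called genes of the lists became 5, 4 and 3 in the 3 FPKM tests, 2 at an adjusted p under 0.01, and 3 to 10 with a library left out. Same-numbered libraries did not deviate together (correlations of -0.01, 0.04 and -0.01), and differently numbered ones gave -0.03 to 0.04. With so few libraries this cannot show whether those of the same number share a plant or a day. The replicate block gave 14 members higher, 0 lower, a median of 0.26, 4805 gene models called and 8 list genes. Of 387 values for 23 named genes 331 kept direction and side of the threshold, 43 lost the call, 1 gained it and 12 changed sign, none of these called. Those 12 were ChaUn5907.3 (-0.0146) and Cha12g010390 (-0.0122) without high-temperature replicate 2, Cha05g016230 on library totals (-0.0036), and 9 others with a library left out. With a library left out, Cha05g016230 ran from -0.16 to 0.17, Cha09g010310 from -0.39 to 0.0546, Cha05g015110 from -0.11 to 0.11 and Cha08g012740 from -0.25 to 0.10. The cause was not tested.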

Other observations

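The annotation holds 4 further gene models with the name of a DELLA protein and the DELLA domain but no GRAS domain, which the family column leaves out. Cha05g011110, named SLR1 after the rice gene and with a coding length of 360 bases, had 4.85 ± 1.41 CPM at high and 3.48 ± 0.582 CPM at low temperature (SD, n = 3), and its log2 change of -0.48 was not called (edgeR adjusted p = 0.291). Cha03g011010, named GAIP-B, had 1.59 ± 0.110 and 1.24 ± 0.0932 CPM and was not called either (adjusted p = 0.629). The remaining models, ChaUn15628.3 and ChaUn10099.3, had too few reads for a test, and no library held more than 4 counts of either.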
